A study of Drosophila melanogaster with 3 samples.

Results

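The cytoplasmic ribosomal protein genes of Drosophila melanogaster were examined for occupancy by Sox15 in prepupae. They were taken by symbol from the Ensembl BDGP6 annotation, as protein-coding genes named RpL or RpS followed by a digit, together with RpLP0, RpLP1, RpLP2 and sta. The rule gave 92 genes of 13945 protein-coding genes on the 6 chromosome arms. By symbol, 53 were assigned to the large subunit and 39 to the small subunit, with -like genes included. Chromatin immunoprecipitation with sequencing had been done with an anti-GFP antibody on whole prepupae of 1 transgenic line, Sox15-GFP, which stably expresses Sox15 with GFP at its C terminus. The series has 1 group of 3 biological replicates, each of pooled males and females of unknown age, and no second condition. Because whole animals were used, occupancy in few cells and weaker occupancy in many cells cannot be told apart.

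Cytoplasmic ribosomes make proteins from messenger RNA, and each subunit is built from ribosomal RNA and a fixed set of proteins. The genes of these proteins are scattered over the genome and are transcribed at high and coordinated rates in growing cells, and loss of a single copy of many of them gives the Minute phenotype of slow development and short bristles in flies. Their promoters often lack a TATA box and start within a run of pyrimidines, the TCT initiator. Sox15 belongs to the Sox family of transcription factors, which bind DNA through a high-mobility-group domain. It is known for roles in the wing hinge and in bristle socket cells.

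The promoters of 8 genes are shown first because they span the range of the data, from strong peaks at RpS27 and RpL34b to RpS3 and RpL6, which had no summit in any list. RpL34a and RpL34b are paralogs, and RpL28, RpS25 and RpL37-1 hold a DNA replication-related element (DRE) in the window. Each sequence runs from 150 bases before to 20 bases after the start site shared by most transcripts, 5′ to 3′ on the strand of the gene, from the RefSeq Release 6 assembly. Capitals mark TATCGATA (the DRE), GGTCACACT (the core of Motif 1), TATAAA (the TATA box), AACAAT and ACAAAG (cores known for Sox proteins) on either strand, and TCTTT (part of the TCT initiator) on the gene strand. The windows lie at chr3R:25247495-25247664 for RpS27, chr3R:9401207-9401376 for RpL34b, chr3R:26059248-26059417 for RpL34a, chr3L:3222939-3223108 for RpL28, chr3R:11216268-11216437 for RpS25 and chrX:15139348-15139517 for RpL37-1, all on the minus strand. Those without a summit lie at chr3R:23358662-23358831 on the plus strand for RpS3 and chr3R:31596185-31596354 on the minus strand for RpL6.
RpS27: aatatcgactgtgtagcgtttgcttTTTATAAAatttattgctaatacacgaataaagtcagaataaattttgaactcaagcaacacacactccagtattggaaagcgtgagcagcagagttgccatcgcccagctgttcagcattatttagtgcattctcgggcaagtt
RpL34b: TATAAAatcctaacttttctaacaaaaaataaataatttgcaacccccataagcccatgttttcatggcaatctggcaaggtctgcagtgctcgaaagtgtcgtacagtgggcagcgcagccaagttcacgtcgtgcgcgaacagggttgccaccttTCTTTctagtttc
RpL34a: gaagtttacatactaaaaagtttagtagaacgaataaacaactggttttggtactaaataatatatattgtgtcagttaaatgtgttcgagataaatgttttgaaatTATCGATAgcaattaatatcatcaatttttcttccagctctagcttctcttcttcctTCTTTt
RpL28: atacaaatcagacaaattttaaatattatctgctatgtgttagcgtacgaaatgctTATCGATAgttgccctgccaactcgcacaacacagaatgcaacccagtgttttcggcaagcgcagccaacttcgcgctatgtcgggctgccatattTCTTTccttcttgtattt
RpS25: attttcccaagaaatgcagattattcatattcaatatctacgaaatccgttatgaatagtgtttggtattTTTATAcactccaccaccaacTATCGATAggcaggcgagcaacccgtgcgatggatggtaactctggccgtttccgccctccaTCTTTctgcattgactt
RpL37-1: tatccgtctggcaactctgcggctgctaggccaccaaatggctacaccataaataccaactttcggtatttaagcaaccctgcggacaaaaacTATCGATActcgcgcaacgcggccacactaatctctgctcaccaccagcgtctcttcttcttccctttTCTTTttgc
RpS3: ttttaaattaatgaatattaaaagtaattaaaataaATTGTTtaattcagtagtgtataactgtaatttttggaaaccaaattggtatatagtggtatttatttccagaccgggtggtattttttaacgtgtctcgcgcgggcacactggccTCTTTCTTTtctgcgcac
RpL6: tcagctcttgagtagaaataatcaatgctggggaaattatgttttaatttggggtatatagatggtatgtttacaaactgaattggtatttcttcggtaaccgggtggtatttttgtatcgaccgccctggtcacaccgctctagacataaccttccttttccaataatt

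In these windows the DRE of RpL28 began 94 bases before the start site, and those of RpS25, RpL37-1 and RpL34a 59, 57 and 43 bases before it. The peak summits of the same genes lay 57, 74, 115 and 113 bases before the start used for the window. TCTTT was found just after the annotated start in 6 of the 8 sequences, RpS3 among them, and beginning 3 to 15 bases into the transcript at its first occurrence. None of the 6 words was found in the window of RpL6. Of the 8 windows, that of RpS3 alone held AACAAT, on the opposite strand. Farther upstream, outside the windows, RpS27 held it 212 bases before the start site, and RpS25 191 and 187 bases before.

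Occupancy was read from the authors' lists of peaks, each with a summit position and a signal, on a scale that the sources used here leave unstated. The reproducible set, filtered by the irreproducible discovery rate (IDR), held 4555 peaks, and a relaxed list from the pooled replicates held 14164. The IDR set was the 4555 pooled peaks of highest signal. The relaxed lists of replicates 1, 2 and 3 held 19304, 19033 and 16102 peaks. Occupied genes are those with a start site no farther than 1000 bp from an IDR summit. Read counts were not given, so depth is unknown, and the 95% Wilson intervals on shares cover counting error only. Signals were set side by side only within 1 list, since each list was called separately.

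Of the 92 ribosomal protein genes, 45 were occupied, a share of 48.9% (95% interval 38.9 to 59.0%). Among all protein-coding genes the share was 19.3%. Most of the remaining members had a weaker peak. A further 32 had a summit in the pooled list only, 6 in a replicate list only, and 9 in none of the 5 lists. The IDR count depended on the replicates. When IDR peaks also had to be covered over at least 50% of their length by 1 of the 4555 highest peaks of both other replicates, 26 members remained without replicate 1 (28.3%, beside 15.5% of all genes), 36 without replicate 2 (39.1%, beside 15.8%) and 27 without replicate 3 (29.3%, beside 16.5%). The pooled list held a summit for 77 members (83.7%, interval 74.8 to 89.9%), beside 37.4% of all protein-coding genes.

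**Figure D1:**
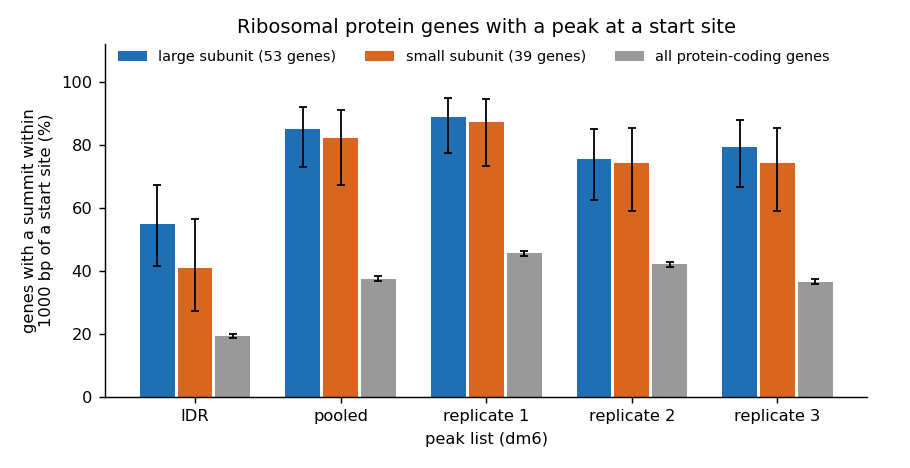
Share of genes with a summit within 1000 bp of a start site in each dm6 peak list, for large-subunit genes, small-subunit genes and all protein-coding genes; error bars are 95% Wilson intervals. Both subunits lie above the share of all genes in each of the 5 lists, with 54.7% and 41.0% in the IDR set and 84.9% and 82.1% in the pooled list.

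Most members had a summit in each replicate. In replicate 1, 81 of the 92 genes had a summit within reach, where 45.5% of all protein-coding genes had one. In replicate 2 the count was 69, beside a background of 42.1%, and in replicate 3 it was 71, beside 36.5%. Summits in all 3 lists were found for 62 members (67.4%, interval 57.3 to 76.1%), beside 27.5% of all genes. Of the 45 occupied members, 42 were present in all 3 lists and 3 in 2 lists. The missing ones were RpL36 and RpL13A in replicate 2, and RpL13 in replicate 3. Among the 4555 highest peaks of each replicate, replicates 1, 2 and 3 held 42, 31 and 39 of the 45, so that replicate 2 ranked these genes lowest.

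**Figure D2:**
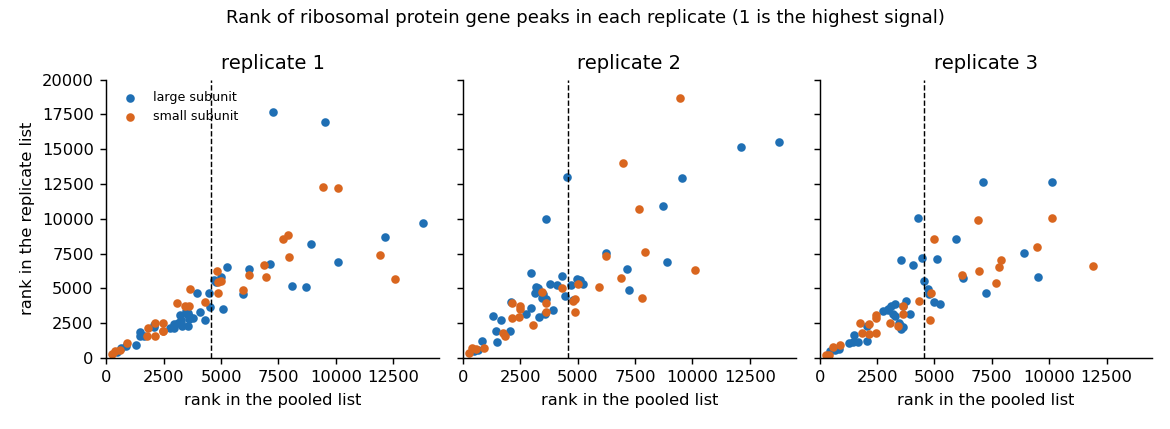
Rank of the strongest peak at each ribosomal protein gene in the pooled list (x axis) and in each replicate list (y axis), where 1 is the highest signal; the dashed line is the end of the IDR set at rank 4555, and members with no summit in a replicate are not drawn. Left of the line the ranks reach 4937 in replicate 1, 13039 in replicate 2 and 10026 in replicate 3.

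Peaks at ribosomal protein genes were numerous but of modest height. The median signal of the strongest peak of each occupied member was 168 (quartiles 145 and 244), beside 236 (160 and 412) over all 2694 occupied genes. Their median rank was 2966 of 4555. Of the 45 peaks, 7 fell in the highest of 4 equal rank classes of the IDR set, 10 and 12 in the following classes and 16 in the lowest. Over all occupied genes the highest class held 34.1% and the lowest 19.6%. When the IDR set was restricted to the 2277 peaks of highest signal, 17 members (18.5%, interval 11.9 to 27.6%) were occupied, beside 11.4% of all genes, close to the lower end of the interval. In the pooled list, where weaker peaks count too, the median was 138 for members and 121.5 for all genes with a summit.

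The highest signal within reach of a member belonged to RpS19b (FBgn0039129, 3R, 23932729 to 23933530, minus strand), with 707 and rank 257, but this peak (23934323 to 23934541) lay 899 bp upstream and nearer to CG5854, at 517 bp. It ranked 259, 322 and 228 in replicates 1, 2 and 3, with signals of 344, 178 and 172. RpS19b is a paralog of RpS19a, known mainly from the germ line. Its summit thus lies far from the start site of RpS19b itself.

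RpS27 (FBgn0039300, 3R, 25245955 to 25247514, minus strand), which encodes a small-subunit protein, had the strongest peak near its own start site, at 25247425 to 25247633 with its summit 29 bp upstream. Its signal was 580.2 in the pooled data and 258, 118 and 191 in the replicates, at ranks 481, 711 and 173. The start of the neighbouring gene Nup37 lay 115 bp from the summit. RpL32 (FBgn0002626, 3R, 30045229 to 30046161, minus strand), a large-subunit gene often used as a reference in expression assays, had 529.7, with 269, 146 and 117 in the replicates. Its summit lay 166 bp upstream and 143 bp from the start site of the neighbouring gene CG7943. RpS20 (3R, 20822181 to 20823356, plus strand) had 481, with 246, 129 and 98.7 in the replicates. Its summit lay 159 bp upstream and 174 bp from the start of CG17271. The peaks of RpS27, RpL32 and RpS20 ranked between 173 and 744 in every replicate.

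The next genes were of the large subunit. RpL34b (3R, 9400237 to 9401226, minus strand) had 456, with 217, 133 and 115 in the replicates. Its summit lay 93 bp upstream and 176 bp from the start of CG8132. A second IDR peak of 183 lay 911 bp downstream of the RpL34b start site. RpL7 (2L, 10201004 to 10202321, plus strand) had 389, with 197, 87.0 and 107 in the replicates. Its summit lay 33 bp inside the transcript, in the 5' UTR, and 63 bp from the start of the neighbouring gene Ripalpha. RpL28 had 278, RpL23 274 and RpL14 254, with summits 48 to 263 bp upstream. The summit of RpL23 lay 293 bp from the start of CG13531, and that of RpL14 79 bp from the start of Nelf-E. RpL28 ranked 1557, 1914 and 1154 in replicates 1, 2 and 3, and RpL14 ranked 1542, 2691 and 1103.

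RpS28b and RpS5a were also among the strongest members. RpS28b (X, 9554623 to 9555661, plus strand) had a peak of 373 at 794 bp upstream, which lay 79 bp from the start of l(1)G0320, and a second of 146 at 42 bp upstream of its own start. RpS5a (X, 17143588 to 17148264, minus strand) had 244, with 132, 66.6 and 44.3 in the replicates and a summit 81 bp upstream. Both encode small-subunit proteins.

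**Figure D3:**
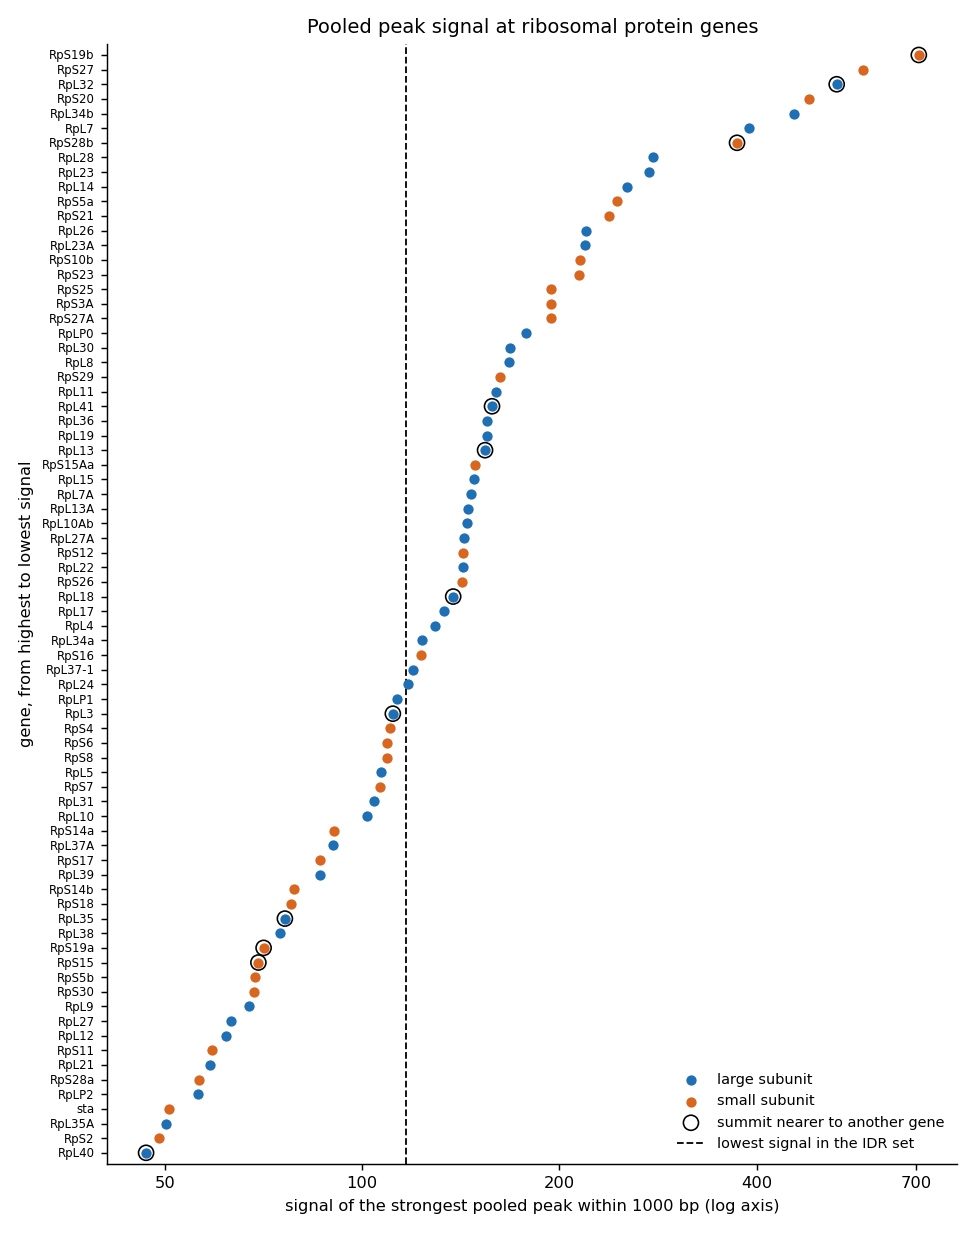
Signal of the strongest pooled peak within 1000 bp of a start site (x axis, log scale) for the ribosomal protein genes that had one (y axis, ordered by signal; 1 gene is not drawn); colour gives the subunit, rings mark summits nearer to another protein-coding gene, and the dashed line is the lowest signal of the IDR set, 117. The signals run on across the line, from RpS19b at 707 to RpL40 at 46.8.

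The limit of the IDR set fell in the middle of the members. Just inside it lay RpL34a with 123, RpS16 with 123, RpL37-1 with 119.6 and RpL24 with 117. Just outside lay RpLP1 with 113, RpL3 with 111, RpS4 with 110.4 and RpS6 with 109. The signals of these 8 genes differ little, and RpL24, counted as occupied, ranked 13039 in replicate 2, whereas RpS4, counted as unoccupied, ranked 4062 there. The 32 members below the limit had a median pooled signal of 75.5, and 20 of them had summits in all 3 replicates. RpS6 encodes the small-subunit protein phosphorylated by S6 kinase, and its weaker peak lay 262 bp upstream.

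Genes with separate roles in the ribosome fell on both sides of the limit. RpLP0, RpLP1 and RpLP2 encode the acidic stalk of the large subunit, which recruits elongation factors. RpLP0 had an IDR peak of 178 at 11 bp upstream of the inner of its 2 start sites, in the 5' UTR. RpLP1 had a pooled peak of 113 at 4 bp upstream, and RpLP2 a pooled peak of 56.2 at 44 bp upstream. RpS27A and RpL40 encode ubiquitin fused to a ribosomal protein. RpS27A had 194 in the IDR set, with its summit 79 bp upstream and as far from the start of Ip259, while RpL40 had 46.8 in the pooled list at 596 bp, nearer to CG3702 at 6 bp. The gene sta, which encodes the small-subunit protein RpSA, had a pooled peak of 50.7 at 33 bp upstream and no summit in replicate 2.

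A summit within 1000 bp was missing from all 5 lists for 9 genes, namely RpS3, RpL6, RpL29, RpS13, RpS15Ab, RpL7-like, RpL22-like, RpL24-like and RpS28-like. Another 6 had one only in a replicate list. RpL36A had a signal of 40.1 in replicate 1 only, which ranked 6822, and RpS9 and RpS24 had 21.6 and 20.9 in the same replicate. RpL10Aa had 15.7 in replicate 3. RpS10a and RpL37-2 had weak peaks in replicates 1 and 3, with 20.7 and 16.4 for RpS10a and 18.8 and 17.3 for RpL37-2. The lists of replicates 1 and 3 had lowest signals of 18.8 and 14.5 and medians of 29.2 and 19.3. The peaks of RpS9, RpS24, RpL10Aa, RpS10a and RpL37-2 lay below these medians, and that of RpL36A lay above.

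The large and small subunits were compared next. Of the 53 large-subunit genes, 29 were occupied (54.7%, interval 41.5 to 67.3%), and of the 39 small-subunit genes 16 (41.0%, interval 27.1 to 56.6%). The intervals overlap, and in the pooled list the shares were 84.9% and 82.1%. Signals ran the other way in the IDR set. Occupied small-subunit genes had a median of 204 and large-subunit genes 155, while in the pooled list the medians were 117 and 142. Of the large-subunit peaks, 12 of 29 lay in the lowest of the 4 rank classes of the IDR set, and of the small-subunit peaks 4 of 16. When the peaks had to be matched in 2 replicates, the occupied counts were 13 of 53 large-subunit and 13 of 39 small-subunit genes without replicate 1, 21 and 15 without replicate 2, and 15 and 12 without replicate 3. The order of the shares turned without replicate 1 and without replicate 3, so it depended on the replicates as well as on the list and the measure.

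Summits at ribosomal protein genes lay close to the start site. Of the 45 strongest IDR summits, 41 were upstream (91.1%, interval 79.3 to 96.5%), and 4 downstream, at RpL7, RpL26, RpS23 and RpL30. Among all occupied genes 84.7% were upstream, a share within that interval, and with the 5' end of the gene record as the only start site 38 members were. The median distance was 79 bp, beside 195.5 bp for all occupied genes. Between 1 and 100 bp upstream lay 25 summits (55.6%, interval 41.2 to 69.1%), where 15.1% of all occupied genes had theirs. The commonest 50 bp bin of the members was the last before the start site, with 13 genes, and that of all genes lay 100 to 150 bp upstream. Only 2 summits were more than 300 bp from the nearest start site of their gene, those of RpS19b and RpS28b. The next farthest were RpL18 at 295 bp and RpL23 at 263 bp, and all of these were upstream. For some members, RpLP0 and RpS16 among them, the nearest start site was an inner one, and the summit lay in the 5' UTR. The side thus depended on the start site used. From the start shared by most transcripts, the summits of RpLP0 and RpS16 lay downstream. Those of RpL26 and RpL30 lay upstream of that start, at 142 bp for RpL26.

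**Figure D4:**
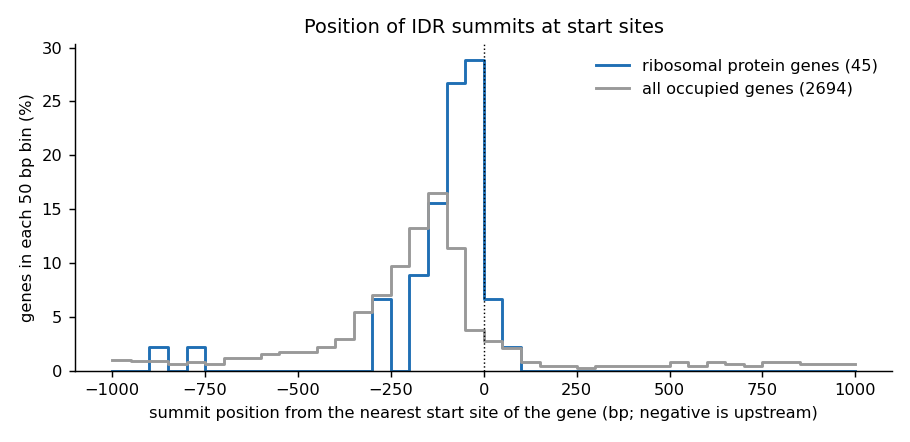
Position of the strongest IDR summit of each occupied gene from its nearest start site, in bins of 50 bp (x axis; negative is upstream), as a share of genes (y axis), for 45 ribosomal protein genes and all 2694 occupied genes. The members gather in the 100 bp before the start, while the curve of all genes peaks 100 to 150 bp upstream.

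The summits of weaker peaks were placed alike. Of the 32 members with a pooled summit only, 26 had it upstream and 6 downstream, at a median distance of 73 bp. Relative to the annotated transcripts of the same gene, 38 of the 45 IDR summits lay outside the gene, 6 in its 5' UTR and 1, that of RpL26, in an intron. In most peaks the deposited summit is the centre of the peak (84.7% of the IDR set), and peaks had a median width of 396 bp, so positions are not resolved to single bases.

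Many summits also had the start of a neighbour within reach, about as often as among all occupied genes. Another protein-coding gene started within 1000 bp of the summit for 31 of the 45 occupied members (68.9%, interval 54.3 to 80.5%). The share over all occupied genes was 62.6%, within that interval. The start site of the member was the nearest for 39 (86.7%, interval 73.8 to 93.7%), beside 69.1% of all occupied genes. The other 6 were RpS19b and RpS28b, described above, RpL32 near CG7943, RpL41 near NaCP60E, RpL13 near Dref and RpL18 near Neos. RpL13 (2L) shares its peak of 154 with Dref, which encodes the factor that binds the DRE. The summit lay 130 bp from the start of RpL13 and 46 bp from that of Dref. Below the IDR limit, the pooled summits of RpL3, RpL35, RpS19a, RpS15 and RpL40 were also nearer to other genes, in this order CG6693, Rab18, Rok, CG4927 and CG3702. When each peak was given to the nearest gene alone, 40 members were occupied (43.5%), beside 13.8% of all genes. RpS28b was among them through its second peak. When the peak itself had to cover a start site, 39 were (42.4%), beside 9.07%.

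Several ribosomal proteins of Drosophila are encoded by paralogs, and 12 groups formed by symbol hold 25 genes. In 10 groups exactly 1 copy was occupied. RpL34a and RpL34b were both occupied, with signals of 123 and 456, and neither RpS14a nor RpS14b was, with 90.6 and 78.7 in the pooled list. The copies of RpS14 lie next to each other on X (7933742 to 7934677 and 7934898 to 7935792) and encode the same protein. The sources used here do not say how reads from near-identical copies were placed, so the values of such copies are uncertain.

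In the other groups a single copy carried the IDR peak. RpL22 had 142 where RpL22-like, known from testis, had no summit, and RpS5a had 244 where RpS5b, known from the ovary, had 68.7 in the pooled list. RpS10b had 215 and RpS10a no pooled summit. RpS15Aa had 149, RpL10Ab 144.5 and RpL37-1 119.6, while RpS15Ab, RpL10Aa and RpL37-2 had no pooled summit. RpL7 with 389 and RpL24 with 117 stood against RpL7-like and RpL24-like, which had no summit in any list. RpL24-like is related to a yeast factor of ribosome assembly. RpS28b had 373 from a peak nearer to l(1)G0320, and 146 from the peak 42 bp upstream of its own start. RpS28a had 56.3 in the pooled list, and RpS28-like none. The exception in order was RpS19b, whose peak of 707 lay nearer to CG5854, over RpS19a with 70.7 in the pooled list, nearer to Rok. The occupied share was 48.0% in the paralog groups and 49.3% in the 67 other members. In the pooled list 8 of 25 paralogs and 7 of 67 other members lacked a summit (32.0% and 10.4%). The shares with a pooled summit were 68.0% and 89.6%, both above the 37.4% of all protein-coding genes.

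**Figure D5:**
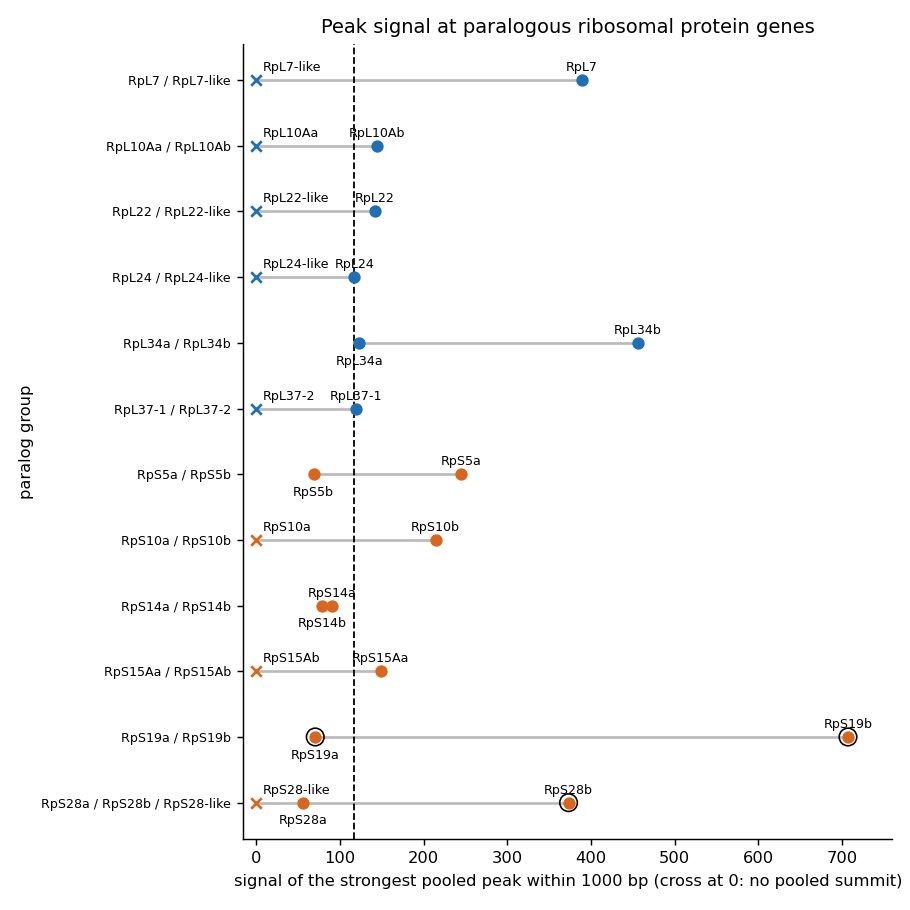
Signal of the strongest pooled peak within 1000 bp of a start site (x axis) for the copies in 12 paralog groups (y axis); blue is the large and orange the small subunit, crosses at 0 are genes with no pooled summit, rings mark summits nearer to another gene, and the dashed line is the lowest signal of the IDR set. Both copies lie right of the line for RpL34a and RpL34b only, and both lie left of it for RpS14a and RpS14b.

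Members on all 6 arms were occupied. The counts were 8 of 19 on 2L, 7 of 20 on 2R, 10 of 14 on 3L, 10 of 23 on 3R, 9 of 15 on X and 1 of 1 on the fourth chromosome, the gene RpS3A with a signal of 194. Over all protein-coding genes the counts were 487 of 2657 on 2L, 512 of 2852 on 2R, 563 of 2739 on 3L, 697 of 3421 on 3R, 426 of 2196 on X and 9 of 80 on the fourth chromosome. On 2R, RpS23 (14215096 to 14216627, minus strand) had a peak of 214 with its summit 16 bp inside the 5' UTR.

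Promoter words were counted from 250 bp before to 50 bp after the main start site of every protein-coding gene. The DRE, TATCGATA, was found in 28 of 92 member promoters (30.4%) and in 9.23% of all promoters. TCTTT on the gene strand was found in 68 (73.9%, interval 64.1 to 81.8%) and in 36.9% of all. Motif 1, as GGTCACACT, was found in 10 (10.9%), beside 6.07%. TATAAA was found in 45.7%, beside 45.5%, but only in 10.9% from 100 bp before the start, beside 23.7%. The Sox cores AACAAT and ACAAAG were found in 33.7% and 9.78%, beside 31.7% and 18.2%. From 100 bp before the start they were found in 7.61% and 1.09%, beside 15.0% and 8.96%. Each word was counted on its own, overlapping matches included, and a match is a description and not a bound site.

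Among the members, the DRE was present in 15 of 45 occupied (33.3%) and 13 of 47 unoccupied members (27.7%), and TCTTT in 36 (80.0%) and 32 (68.1%). TATAAA was present in 40.0% of occupied and 51.1% of unoccupied members, and AACAAT in 31.1% and 36.2%. ACAAAG was present in 2 occupied (4.44%, interval 1.23 to 14.8%) and 7 unoccupied members (14.9%, interval 7.41 to 27.7%), and these intervals overlap. Of 32 DRE matches, 27 began within the 100 bases before the start site or after it. In 21 members with a DRE and a pooled summit, the 2 lay a median of 56 bp apart, and within 100 bp of each other in 18. Of the 77 pooled member summits, 39 also lay in the 100 bp before the start site. The distance was not set beside that of other genes or words, so it does not tie the peaks to the DRE.

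The sequence under member peaks had a higher mean GC content than that under all occupied genes, with wide overlap. Within 100 bp of the summit, GC content averaged 41.3% ± 7.36 (SD, n = 45 peaks), beside 33.9% ± 6.35 (SD, n = 1834 peaks) for all occupied genes. Over promoters, occupied or not, the means were 37.7% for the 92 members and 39.2% for all 13945 genes. Promoters of occupied genes were not averaged apart, so these means are not of the same genes as the summits. Within 100 bp of the summit, AACAAT was found at 5 of 45 member summits (11.1%, interval 4.84 to 23.5%), beside 25.7% of all occupied summits. The values for the DRE were 26.7% (interval 16.0 to 41.0%) and 4.36%, and for TATAAA 24.4% and 39.6%. GC content moves with the counts of AACAAT and TATAAA, and its part in them was not tested.

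Other genes of translation gave a range of values. Of 7 elongation factor genes in the annotation, 3 were occupied, beside 19.3% of all protein-coding genes. They were eEF1alpha1, which delivers aminoacyl-tRNA, with 271, eEF1gamma with 265 and eEF5 with 136, all with summits 24 to 99 bp upstream. In replicate 2, eEF1gamma had no summit. Pooled peaks of 98.9 and 59.8 lay at eEF2, the translocase, and eEF1alpha2, and none at eEF1beta and eEF1delta. Rack1, which encodes a protein of the small subunit surface, had 172. Among genes chosen for proteins that act at promoters in general, M1BP had 379, Dref 154 and Trf2 137, while Tbp and Myc had no pooled summit. Whether the 5 proteins act at the ribosomal protein promoters in these animals was not tested.

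Mitochondrial ribosomal protein genes and translation initiation factor genes were the closest sets for comparison. Of 73 mitochondrial genes, 20 were occupied (27.4%, interval 18.5 to 38.6%), with a median signal of 249.9. Initiation factor genes gave 9 of 44 (20.5%, interval 11.2 to 34.5%), with a median of 380.0. Both sets had a smaller share and a higher median signal than the 48.9% and 168 of the cytoplasmic ribosomal protein genes in the IDR set. The order of the signals turned in the pooled list, with medians of 110.5 and 107 beside 138. Beside the 19.3% of all protein-coding genes, the intervals of both shares hold the background. The own start site was nearest to the IDR summit for 8 of 20 mitochondrial and 5 of 9 initiation factor genes, beside 39 of 45 cytoplasmic genes. Most peaks of the mitochondrial set thus lay nearer to another gene. IDR summits of mitochondrial and initiation factor genes lay at a median of 153.5 and 143 bp from the start site. Of these, 2 of 20 and 2 of 9 fell in the 100 bp upstream of it, where 25 of 45 cytoplasmic genes had theirs. In the pooled list the counts were 5 of 43 (11.6%) and 8 of 19 (42.1%, interval 23.1 to 63.7%), beside 39 of 77 (50.6%). Pooled median distances were 155 and 109 bp, beside 79 bp. The contrast in position with initiation factor genes was thus smaller in the pooled list.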

How the data were processed

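Sox15-GFP occupancy was measured by ChIP-seq in 3 biological replicates of whole prepupae. The authors deposited dm6 and dm3 peak lists; the dm3 lists were not used. Per the listing deposited with the files, which have no headers, replicate and pooled lists were made from alignments and a control file, and the IDR set from these lists. The sources used here name neither aligner nor peak caller. The deposited signal is in the narrowPeak signal column, and the deposited −log10 q-value of 39 of the 45 member peaks was the highest in the list, so it was not used to order them.

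Genes came from Ensembl release 115 and bases from RefSeq's Release 6 genome, whose arms contain each dm6 peak. Summits were matched to the start sites of protein-coding transcripts within 1000 bp, and the strongest peak was kept for each gene. The matching and word search were tested on simulated data. Intervals are 95% Wilson intervals. No test was run, since the members and lists were chosen with earlier results of these data known. Members are not replicates, and the list is described beside all 13945 protein-coding genes. Genes named are the 12 highest, 1 of which is not reported here, the 4 on either side of the IDR limit, those with no summit, paralogs, those with summits nearer to another gene, the 4 farthest, and the stalk, RpS6, sta and ubiquitin fusion genes. RpS23, RpS3A, RpL36, RpL13A, RpL26, RpL30 and the genes found in replicate lists only were named after their values were seen. Other distances, start sites, peak sets and members were tried as alternatives. The analysis used Python 3.11.15, pandas 2.3.3 and scipy 1.17.1.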

Additional observations from a re-analysis of the deposited data

How the results depend on the processing

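Of 107 alternative values over 18 results, 71 stayed close to the reported value, within 1.5 times for a count and within its 95% interval for a median or share, and 36 moved. Reaches of 500 and 2000 bp, peaks covering a start site, the gene record alone, the nearest gene alone and members without -like symbols left the occupied count between 39 and 51. The threshold mattered most. In the stronger part of the IDR set 17 members were occupied, 9 of the large and 8 of the small subunit, with a median signal of 278 and 0 paralog groups fully occupied. In the pooled list these values were 77, 45, 32, 138 and 4, and at 2000 bp 3 groups were fully occupied. Requiring a match in the top peaks of 2 replicates, with each left out in turn, gave 26 to 36 occupied members, 13 to 21 of the large and 12 to 15 of the small subunit. Without replicates 1, 2 and 3 the occupied counts were 26, 36 and 27, so a match in replicates 1 and 3 kept the most. In these sets the median signal was 194 to 219, the upstream count 23 to 32, the own-start count 23 to 31, the median distance 67.5 to 87 bp, and 0 paralog groups were fully occupied. The signals were those of the deposited pooled data throughout. A match in all 3 replicates gave 24 (26.1%, beside 14.7% of all genes), 12 of them of the large subunit, with a median of 229, 21 upstream, 21 nearest to their own start, and 0 groups. Among the top 4555 peaks of each replicate, 43, 36 and 42 members had a summit. From 100 bp before the start, TATAAA was in 10.9% of member promoters (23.7% of all promoters), AACAAT in 7.61% (15.0%) and ACAAAG in 1.09% (8.96%). No paired analysis was possible because the series has 1 group. Depth is unknown, so a missing summit does not show absence.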
